A study of Danio rerio with 2 samples.

Results

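Spermatogonia of type B (SPG-B) were compared with differentiating spermatogonia of type A (SPG-Ad, the class called SPG-A diff in the study's annotation) in single-cell RNA sequencing of zebrafish testis. The series holds 2 libraries, replicate 1 and replicate 2, of dissociated whole testes from adult males aged 6 months. The labels give the fish as wild type in one field and as transgenic in another, with no transgene named, and the methods give the AB/Tübingen background. No treatment is given, so the groups are stages of one tissue, and the libraries are biological replicates made from testes of adult males (n = 2), with no library tied to 1 fish. In replicate 1 the stage of a cell is the study's own label, and in replicate 2 it is the majority label of the 15 most similar labelled cells. This gave 469 SPG-B cells (178 and 291 in replicates 1 and 2) and 848 SPG-Ad cells (292 and 556), together 1317 of the 5930 cells with a stage and of 9980 barcodes in the files.

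Type A spermatogonia include the stem cells of the testis, and their differentiating progeny divide synchronously inside cysts of Sertoli cells. Type B spermatogonia are the last mitotic generations, after which the cells replicate their DNA once more and enter meiotic prophase as primary spermatocytes (SPC-I). In other vertebrates this entry is marked by meiotic cohesins and synaptonemal complex genes, and in mouse it depends on the transcription factors Stra8 and Meiosin.

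The depth of both libraries was sufficient to sum transcripts per stage. In this 3′ chemistry each captured molecule carries a unique molecular identifier (UMI), and the deposited values are UMI counts per gene and cell. The SPG-B sums held 1520184 and 2561064 UMIs in replicates 1 and 2, and the SPG-Ad sums held 4475536 and 7968152. When labels were hidden in 10 parts of the labelled cells, the vote recovered 169 of 178 SPG-B cells (94.9%, 95% Clopper-Pearson interval 90.6 to 97.7%) and 274 of 292 SPG-Ad cells (93.8%, 90.4 to 96.3%). Both libraries shared 8 cell barcodes. The SPG-B markers pdia4, ccnb1, eno3 and tmem97 summed to 2018 and 1868 CPM (UMIs per 1000000 UMIs of the sum) in SPG-B, against 365 and 421 CPM in SPG-Ad. The 4 SPG-Ad markers found in the files had 2142 and 2499 CPM in SPG-B, against 5202 and 5357 CPM in SPG-Ad, so both labels fitted their markers. These markers had been chosen by the study on the same cells. Markers of the next stage were higher in SPG-B, where the 5 SPC-I genes summed to 3725 and 3119 CPM, against 1969 and 1899 CPM in SPG-Ad. Markers of somatic and immune cells were low in both stages. The part of either in the differences was not tested. The 5 Leydig cell genes summed to 25.7 and 69.1 CPM in SPG-B and to 29.3 and 65.8 CPM in SPG-Ad, and the 5 Sertoli cell genes to 2.63 and 13.7 CPM in SPG-B and to 2.23 and 5.02 CPM in SPG-Ad, with fshr at 0 in all 4 sums. The 5 immune cell genes summed to 45.4 and 55.4 CPM in SPG-B and to 49.6 and 52.1 CPM in SPG-Ad.

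SPG-B cells yielded fewer transcripts than SPG-Ad cells. The median cell had 7461.5 and 8231 UMIs in SPG-B, against 13207.5 and 12426.5 UMIs in SPG-Ad, a ratio of 0.565 in replicate 1 and 0.662 in replicate 2 (0.614 ± 0.0689, SD, n = 2). The ratio averages cells of unlike depth, since SPG-B joins 2 clusters of the study. The median was 11620 and 11242.5 UMIs in its cluster 12, near that of SPG-Ad, and 6510 and 5914 UMIs in its cluster 10. The number of genes seen per cell was also lower, with medians of 2562.5 and 2657 in SPG-B, against 3744.5 and 3457.5 in SPG-Ad. At an equal depth of 2000 UMIs per cell it was not, with 1075 and 1068 genes in SPG-B and 1054 and 1040 genes in SPG-Ad (5 and 9 SPG-B cells and 1 SPG-Ad cell of each replicate were too shallow). All levels below are CPM within a stage, so they say how the transcripts of a cell are divided among genes and not how many molecules of a gene it holds.

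Of 14187 genes tested, 727 were higher in SPG-B than in SPG-Ad and 1282 were lower, which is 5.12% and 9.04% of the genes. A gene was called where edgeR's quasi-likelihood test gave a Benjamini-Hochberg adjusted p under 0.05, the log2 fold change was over 1 in size and both replicates differed in the same direction. In 63.1% of all genes, and in every gene called, the values of the 2 stages did not overlap. The median log2 fold change of all genes was -0.04. Without replicate 1 the fit called 205 genes higher and 766 lower, and without replicate 2 it called 418 and 1056. Scaled to the number of cells instead of the number of UMIs, the median was -0.78, and 141 genes were called higher against 4255 lower, so the split between higher and lower refers to shares of the transcripts. The stages come from clusters of these same counts, so an adjusted p here is no independent test of a difference. It describes the size of the difference against the spread between the 2 libraries, estimated over all 7 stages together. Cells of replicate 2 took their stage by similarity to cells of replicate 1, so the labels of the replicates are not independent.

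**Figure D1:**
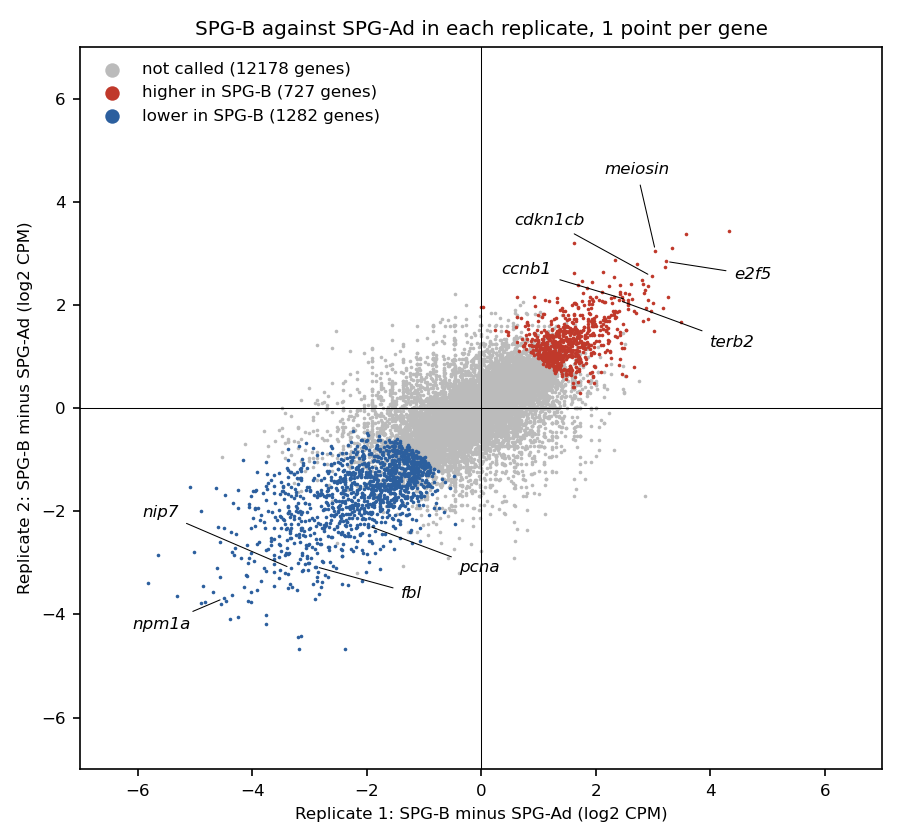
Difference between SPG-B and SPG-Ad in log2 CPM for each of 14187 genes, in replicate 1 (x axis) and replicate 2 (y axis), with the 727 genes called higher in red, the 1282 called lower in blue and the others in grey. The named genes lie near the diagonal, with meiosin and e2f5 at the upper right and npm1a at the lower left.

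Genes of the nucleolus and of ribosome assembly showed the broadest fall. Of 122 listed genes 117 were found in the files and 114 tested, and 88 of these (77.2%) were called lower in SPG-B and none higher, at a median log2 fold change of -1.83. Together they took 0.40% and 0.39% of the UMIs of SPG-B, against 1.1% and 1.0% of those of SPG-Ad. Such list shares of a whole stage are sums of CPM after TMM scaling, here and below, and not plain shares of UMIs. The fall included npm1a, which encodes the nucleolar chaperone nucleophosmin, with 21.4 and 37.7 CPM in SPG-B and 493 and 493 CPM in SPG-Ad (log2 fold change -4.02 ± 0.38, SE, adjusted p = 5.6e-06). It also included fbl, the methyltransferase of box C/D small nucleolar RNPs, with 20.1 and 16.1 CPM in SPG-B and 153 and 139 CPM in SPG-Ad (-3.04 ± 0.21, adjusted p = 8.3e-07). No SPG-B library reached the level of an SPG-Ad library for either gene, which held for all 1282 genes called lower.

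The pseudouridine synthase gene dkc1 had 40.2 and 39.6 CPM in SPG-B, against 315 and 259 CPM in SPG-Ad, a log2 fold change of -2.85. The assembly factors nip7, wdr43, nifk, rrp1 and mphosph10 fell by 3.26, 3.11, 2.84, 2.80 and 2.76 on the log2 scale, and pum3, which encodes a Pumilio-family protein of the nucleolus, fell by 2.93. Less abundant members fell as far, among them rcl1 with 4.40 and 2.62 CPM in SPG-B and 45.6 and 35.8 CPM in SPG-Ad, and the RNA acetyltransferase nat10 with 3.14 and 2.62 CPM in SPG-B and 31.8 and 27.8 CPM in SPG-Ad. The RNA polymerase I subunit gene polr1f had 7.54 and 6.73 CPM in SPG-B, against 63.0 and 53.8 CPM in SPG-Ad. The list's most abundant members did not pass the fold limit. Nucleolin (ncl) had 321 and 292 CPM in SPG-B and 618 and 486 CPM in SPG-Ad (log2 fold change -0.85), and rsl24d1 had 254 and 298 CPM in SPG-B and 415 and 430 CPM in SPG-Ad.

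The ribosomal proteins themselves differed far less. The list, taken by symbol, also holds S6 kinases and rps19bp1, of which 9 were tested. Of the other 83 tested genes 1 was called, rpl7l1, which encodes a nucleolar relative of Rpl7 and fell by 1.19 on the log2 scale. Their median was -0.14, and they took 23.1% and 22.7% of the UMIs of SPG-B, against 25.1% and 24.8% of those of SPG-Ad. The most abundant member, rplp1, had 7291 and 7064 CPM in SPG-B and 7391 and 7155 CPM in SPG-Ad. The list of translation factors by symbol took in kinases and methyltransferases of these factors. Of its 80 tested genes 13 (16.25%) were called lower and 1 (1.25%) higher, against 9.04% and 5.12% of all genes (median -0.31). Of the 72 without those, 10 (13.9%) were lower and 1 higher. The one higher was eif4eb, a cap-binding protein, with 343 and 283 CPM in SPG-B and 128 and 132 CPM in SPG-Ad, but its fold change without replicate 1 was 0.91 on the log2 scale, under the limit. The elongation factor eef1a1l1, the most abundant of the list, was not called, with 3616 and 4327 CPM in SPG-B and 4612 and 5361 CPM in SPG-Ad.

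**Figure D2:**
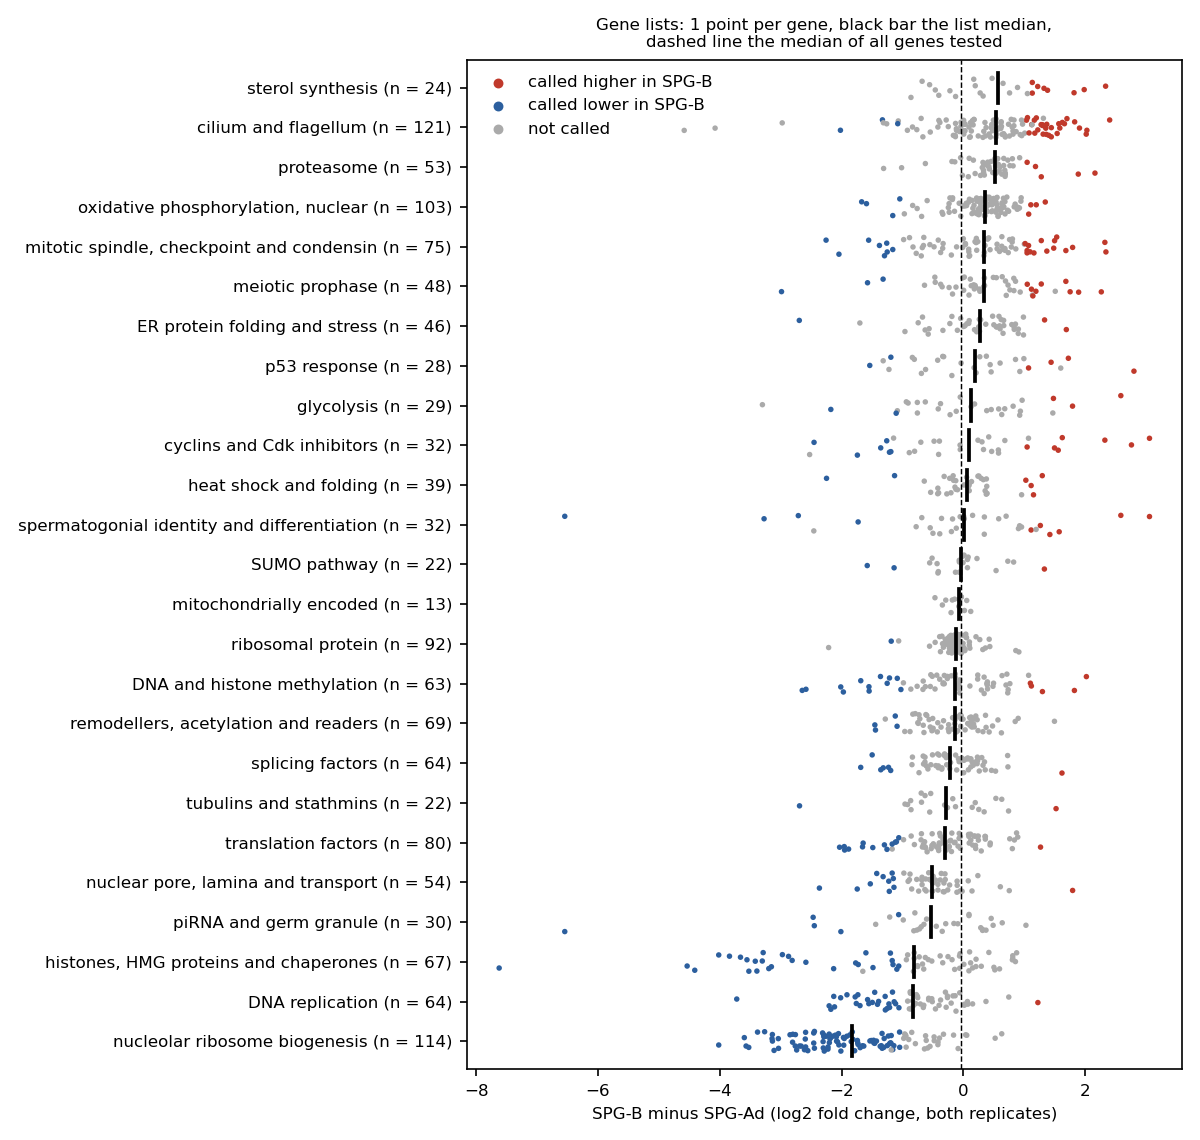
Log2 fold change of SPG-B over SPG-Ad for every tested member of 25 gene lists (1 point per gene; red called higher, blue called lower, grey not called), with the list's median as a black bar and the median of all genes as a dashed line. The nucleolar list lies furthest to the left, with its median at -1.83, and sterol synthesis furthest to the right, at 0.56.

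Genes of DNA replication were lower in SPG-B as a group, with 26 of 64 tested (40.6%) called lower, 1 called higher and a median of -0.83. After the same scaling they took 0.78% and 0.71% of UMIs in SPG-B and 1.35% and 1.39% in SPG-Ad. The sliding clamp gene pcna, by which the study marks proliferation, had 333 and 283 CPM in SPG-B, against 1316 and 1373 CPM in SPG-Ad (log2 fold change -2.13 ± 0.28, SE, adjusted p = 9.1e-05). The flap endonuclease fen1 had 86.0 and 92.3 CPM in SPG-B and 298 and 315 CPM in SPG-Ad, and thymidylate synthase (tyms) 49.6 and 41.9 CPM in SPG-B and 149 and 153 CPM in SPG-Ad. Thymidine kinase (tk1) was down to 1 and 7 UMIs in the SPG-B sums, against 92 and 237 UMIs in SPG-Ad. The member called higher was orc1, of the origin recognition complex, with 13.2 and 13.1 CPM in SPG-B and 5.80 and 5.45 CPM in SPG-Ad, a call that was lost without either replicate (log2 fold change 1.06 without replicate 1 and 1.02 without replicate 2). The helicase subunit mcm5 was not called, with 225 and 216 CPM in SPG-B and 242 and 265 CPM in SPG-Ad. The levels of mcm5, fen1 and tyms inside SPG-B were uneven, and that of mcm5 is taken up further on. With SPG-B from cluster 10 only, fen1 and tyms did not pass the fold limit (log2 fold changes -0.97 and -0.897).

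Most of the histone genes were lower in SPG-B. Of 67 tested genes for histones, high-mobility-group proteins and histone chaperones, 28 (41.8%) were called lower and none higher (median -0.81). The 28 were 20 of 30 histone genes (median -2.84), 3 of 14 HMG genes (median -0.20) and 5 of 23 chaperones and related genes (median -0.75), a division made after the values were seen, and npm1a is among the chaperones. The list's share of UMIs was alike, at 4.10% and 4.62% in SPG-B and 4.13% and 4.61% in SPG-Ad. The histone genes alone took 1.34% and 1.35% in SPG-B and 1.38% and 1.45% in SPG-Ad. The cluster gene zgc:153409, one of the study's SPG-Ad markers and outside this list, had 188 and 244 CPM in SPG-B, against 1977 and 1444 CPM in SPG-Ad (log2 fold change -2.98 ± 0.26, SE). The linker histone gene histh1l2 had 17.6 and 19.4 CPM in SPG-B, against 152 and 111 CPM in SPG-Ad. Of the core histone genes, hist1h2a5 had 2 and 5 UMIs in SPG-B and 183 and 255 UMIs in SPG-Ad, and hist2h3ca1 had none in SPG-B and 36 and 47 in SPG-Ad, at least 9.07-fold lower when 3 UMIs over both SPG-B sums are taken as the floor. The study names SPG-Ad by a gene of this H2A cluster. Reads of near-identical histone copies may not be told apart, so the single values are uncertain. The list's 2 most abundant members were not called. The chromatin protein gene hmgn2 had 7478 and 11284 CPM in SPG-B and 8547 and 11050 CPM in SPG-Ad, and hmgb2b had 5875 and 5955 CPM in SPG-B and 4637 and 5019 CPM in SPG-Ad.

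Cell-cycle regulators moved in both directions. Of 32 tested cyclins, Cdk inhibitors and E2F factors 7 (21.9%) were called higher and 6 (18.75%) lower, against 5.12% and 9.04% of all genes. The gene with the largest rise was e2f5, which encodes a repressive E2F factor, with 471 and 365 CPM in SPG-B, against 50.1 and 50.4 CPM in SPG-Ad (log2 fold change 3.05 ± 0.19, SE, adjusted p = 6.2e-07). The Cdk inhibitor cdkn1cb, a p57 gene, had 200 and 203 CPM in SPG-B, against 24.9 and 34.1 CPM in SPG-Ad (2.76 ± 0.23, adjusted p = 3.2e-06). The mitotic cyclin ccnb1 had 1021 and 906 CPM in SPG-B, against 173 and 212 CPM in SPG-Ad (2.32 ± 0.18, adjusted p = 2.0e-06). In all 3 the stages did not overlap, which held for all 727 genes called higher and adds nothing to the call.

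The other members called higher were ccnb3, with 254 and 221 CPM in SPG-B and 87.9 and 66.8 CPM in SPG-Ad, the inhibitor cdkn2d with 37.7 and 47.5 CPM in SPG-B and 15.3 and 14 CPM in SPG-Ad, the E2F partner tfdp2 and cdk2. Those called lower were the repressor e2f8, with 46.5 and 28.0 CPM in SPG-B and 197 and 201 CPM in SPG-Ad, the S-phase cyclins ccne2 and ccna2 (log2 fold change -1.74 and -1.26), e2f3, e2f6 and the inhibitor cdkn1a. The call of cdkn1a, with 10.7 and 18.3 CPM in SPG-B and 24.9 and 43.0 CPM in SPG-Ad, was lost under 9 alternatives. That of cdk2 was lost under 6, and its level inside SPG-B is taken up further on. Without replicate 1 the calls of cdk2, tfdp2, cdkn2d, e2f3 and cdkn1a were lost (log2 fold changes 0.53, 0.99, 1.56, -1.62 and -1.42), and without replicate 2 those of cdkn2d, e2f3, e2f6 and cdkn1a (1.14, -1.45, -1.06 and -1.38). The kinase cdk1 was not called, with 431 and 457 CPM in SPG-B and 329 and 337 CPM in SPG-Ad. The 19 members not called lay between -2.52 (cdk6, with 2 and 0 UMIs in SPG-B and 17 and 19 in SPG-Ad) and 1.07 (rbl2) on the log2 scale.

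Of 75 mitotic spindle, checkpoint and condensin genes 15 (20%) were called higher and 8 (10.7%) lower, against 5.12% and 9.04% of all genes. Their median was 0.34, and they took 1.64% and 1.54% of UMIs in SPG-B, against 1.09% and 1.06% in SPG-Ad. The activator of the anaphase-promoting complex cdc20 had 800 and 732 CPM in SPG-B, against 149 and 154 CPM in SPG-Ad (log2 fold change 2.34 ± 0.18, SE). The Cdk-binding subunit gene cks2 (ENSDARG00000071410) had 1192 and 1185 CPM in SPG-B and 406 and 445 CPM in SPG-Ad. The spindle motor kif11 and the kinase aurka rose by 1.68 and 1.37 on the log2 scale, and the microtubule-associated troap, outside this list, by 2.43. Without replicate 1 kif11 and aurka were not called (1.28 and 0.95), and their levels inside SPG-B are taken up further on. The condensin subunit ncapd3 was called lower (-2.26), as were spc24, smc2 and ccna2 among others, but the share called lower was near that of all genes. The most abundant microtubule genes were not called over all of SPG-B, with tubb4b at 1823 and 2086 CPM in SPG-B and 2158 and 2257 CPM in SPG-Ad. The levels of tubulin genes inside SPG-B are also taken up further on. Stathmin (stmn1, ENSDARG00000004169), which destabilises microtubules, had 170 and 278 CPM in SPG-B, against 1451 and 1452 CPM in SPG-Ad.

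**Figure D3:**
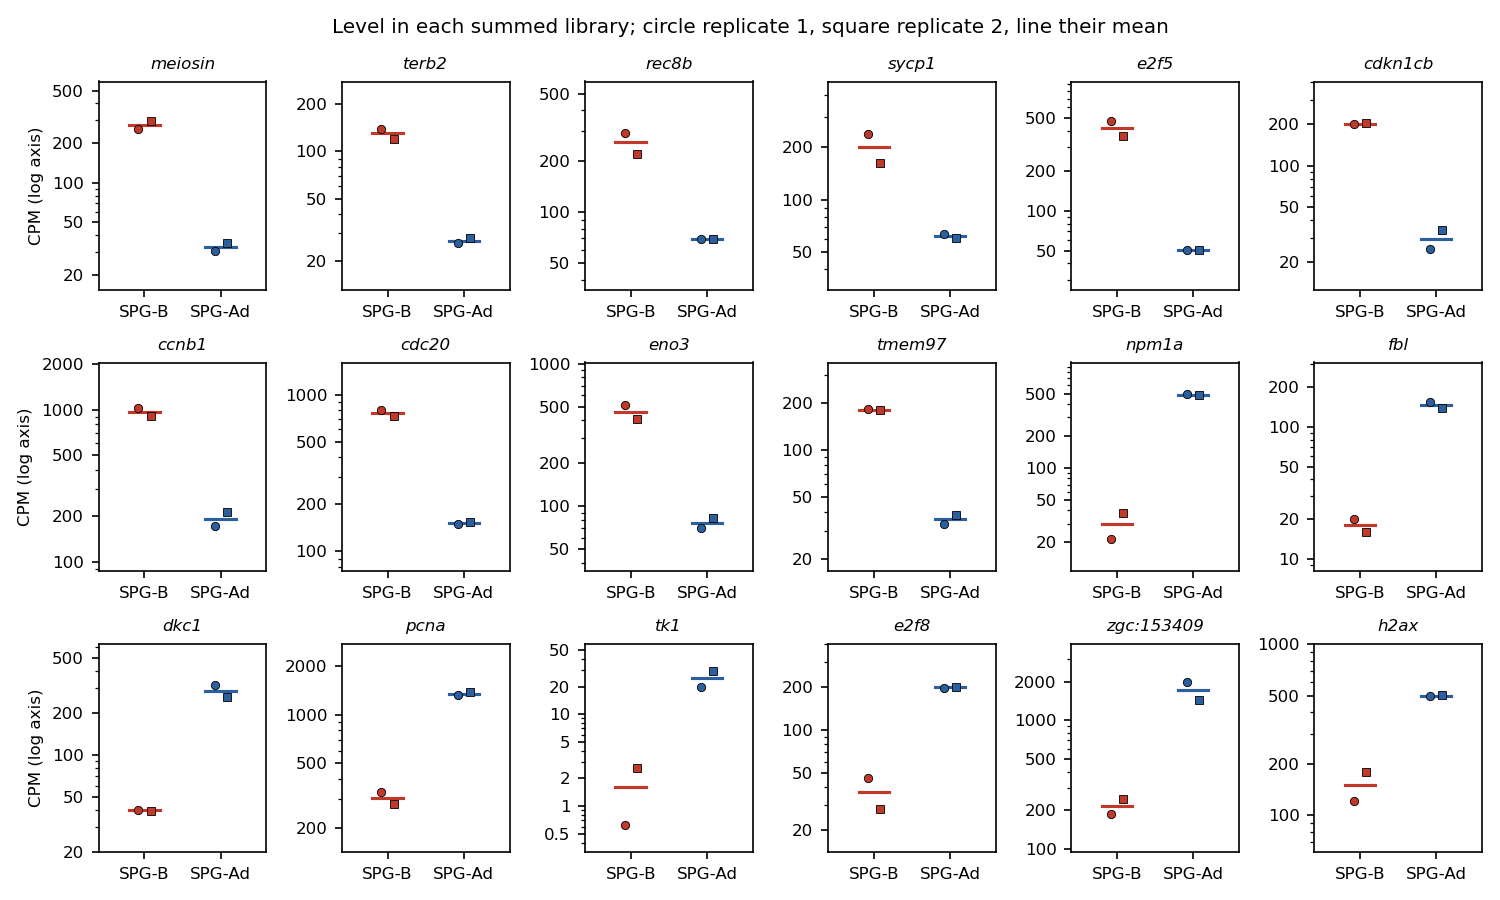
CPM on log axes of 18 genes in the SPG-B sums (red, left) and the SPG-Ad sums (blue, right) of replicate 1 (circles) and replicate 2 (squares), with the mean of both as a line. In each panel both libraries of one stage lie on the same side of both libraries of the other, as they do for every called gene. For ccnb1 the values are 1021 and 906 CPM in SPG-B and 173 and 212 CPM in SPG-Ad.

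The gene with the largest fold rise among the named genes was meiosin, whose mouse counterpart acts with Stra8 to switch on meiotic genes. It had 256 and 293 CPM in SPG-B, against 30.5 and 35.1 CPM in SPG-Ad, a log2 fold change of 3.06 ± 0.20 (SE, adjusted p = 6.9e-07). It was low on either side of SPG-B, with 10.6 and 9.61 CPM in undifferentiated type A spermatogonia (SPG-Aun) and 19.9 and 24.4 CPM in SPC-I. The meiotic genes terb2, rec8b and sycp1 rose in SPG-B and had higher values still in SPC-I.

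Of 48 tested meiotic prophase genes (67 listed, 50 in the files) 9 (18.8%) were called higher and 3 (6.25%) lower, with a median of 0.34. Of all genes 5.12% were called higher and 9.04% lower. They took 0.90% and 0.77% of UMIs in SPG-B and 0.64% and 0.61% in SPG-Ad. The 5 SPC-I markers are themselves in this list. The telomere attachment gene terb2 had 139 and 121 CPM in SPG-B, against 26.0 and 27.9 CPM in SPG-Ad (log2 fold change 2.26 ± 0.26, SE), and 466 and 370 CPM in SPC-I. The meiotic cohesin gene rec8b had 295 and 221 CPM in SPG-B, against 69.7 and 69.0 CPM in SPG-Ad, with 391.6 and 354.3 CPM in SPC-I. The synaptonemal complex gene sycp1 had 238 and 162 CPM in SPG-B, against 63.6 and 60.6 CPM in SPG-Ad, and 1623 and 2044 CPM in SPC-I.

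Also called higher were the single-strand binding protein meiob (1.75 on the log2 scale), the cohesin subunit stag3 (1.19), psmc3ip, mcmdc2, sycp2 and tex11. The call of meiob was lost without replicate 1 (1.43) and that of stag3 without either (0.62 without replicate 1 and 1.48 without replicate 2). The axis gene sycp3, by which the study marks spermatocytes, was the list's most abundant, with 1678 and 1598 CPM in SPG-B and 838 and 973 CPM in SPG-Ad. At a log2 fold change of 0.85 (adjusted p = 0.0016) it did not pass the fold limit. Members called lower included the nuclease exo1, with 6.28 and 5.61 CPM in SPG-B and 45.6 and 47.9 CPM in SPG-Ad, and mcm9, which act in DNA repair outside meiosis too.

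Genes of spermatogonial identity moved in both directions. The stem cell gene nanos2 had no UMI in either SPG-B sum and 23 and 14 UMIs in SPG-Ad, at least 4.05-fold lower, and the transcription factor zbtb16b (Plzf) had 1 and 1 UMIs in SPG-B, against 22 and 40 in SPG-Ad. At such counts the calls were lost for both without replicate 1 (adjusted p = 0.092 and 0.056 by edgeR) and for zbtb16b without replicate 2 (adjusted p = 0.13). Of 32 tested identity genes 6 (18.8%) were called higher and 4 (12.5%) lower, against 5.12% and 9.04% of all genes. Those higher include eno3, e2f5 and ripply2, by which the study names SPG-Aun. The enolase gene eno3, also one of the study's SPG-B markers, had 509 and 410 CPM in SPG-B, against 69.9 and 83.0 CPM in SPG-Ad (log2 fold change 2.58 ± 0.18, SE), and 127 and 116 CPM in SPG-Aun. The transcription repressor ripply2 had 161 and 117 CPM in SPG-B and 43.9 and 49.1 CPM in SPG-Ad.

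Few germ granule and piRNA genes were called, all of them lower in SPG-B. Of 30 tested 5 (16.7%) were called lower and none higher, against 9.04% and 5.12% of all genes (median -0.53). In both replicates 19 were below and 10 above their SPG-Ad level. The Tudor protein gene tdrd1 had 23.9 and 31.8 CPM in SPG-B, against 159 and 154 CPM in SPG-Ad, and the RNA-binding dnd1 had 1.26 and 2.24 CPM in SPG-B, against 9.67 and 10.8 CPM in SPG-Ad. The most abundant members, by which the study tells SPG-A from SPG-B, did not pass the limits. The helicase ddx4 (vasa) had 1481 and 1457 CPM in SPG-B and 2442 and 2305 CPM in SPG-Ad, and piwil1 had 1226 and 1350 CPM in SPG-B and 1772 and 1737 CPM in SPG-Ad.

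Genes of cilia and flagella, used later in sperm, were called higher in SPG-B more often than lower. Of 121 tested 29 (24.0%) were called higher and 3 (2.48%) lower, against 5.12% and 9.04% of all genes (median 0.53). The list took 0.29% and 0.24% of UMIs in SPG-B and 0.16% and 0.16% in SPG-Ad. The SPC-I markers given above moved with them. The outer dynein arm docking gene odad4 had 53.4 and 47.5 CPM in SPG-B, against 8.17 and 10.5 CPM in SPG-Ad (log2 fold change 2.40 ± 0.21, SE), and 155 and 138 CPM in SPC-I. The axonemal genes dnah7 and cfap74 rose by 2.03 and 2.02, with 40.2 and 22.0 CPM of dnah7 in SPG-B and 8.60 and 6.44 CPM in SPG-Ad. The summed markers of spermatids were not higher in SPG-B. The 4 round spermatid markers summed to 76.3 and 67.6 CPM in SPG-B and to 89.4 and 82.5 CPM in SPG-Ad, and the 3 elongated spermatid markers to 94.1 and 134 CPM in SPG-B and to 96.7 and 155 CPM in SPG-Ad. Of these edrf1 was above SPG-Ad in both replicates without being called, with 47.1 and 70.6 CPM in SPG-B and 23.6 and 55.3 CPM in SPG-Ad.

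**Figure D4:**
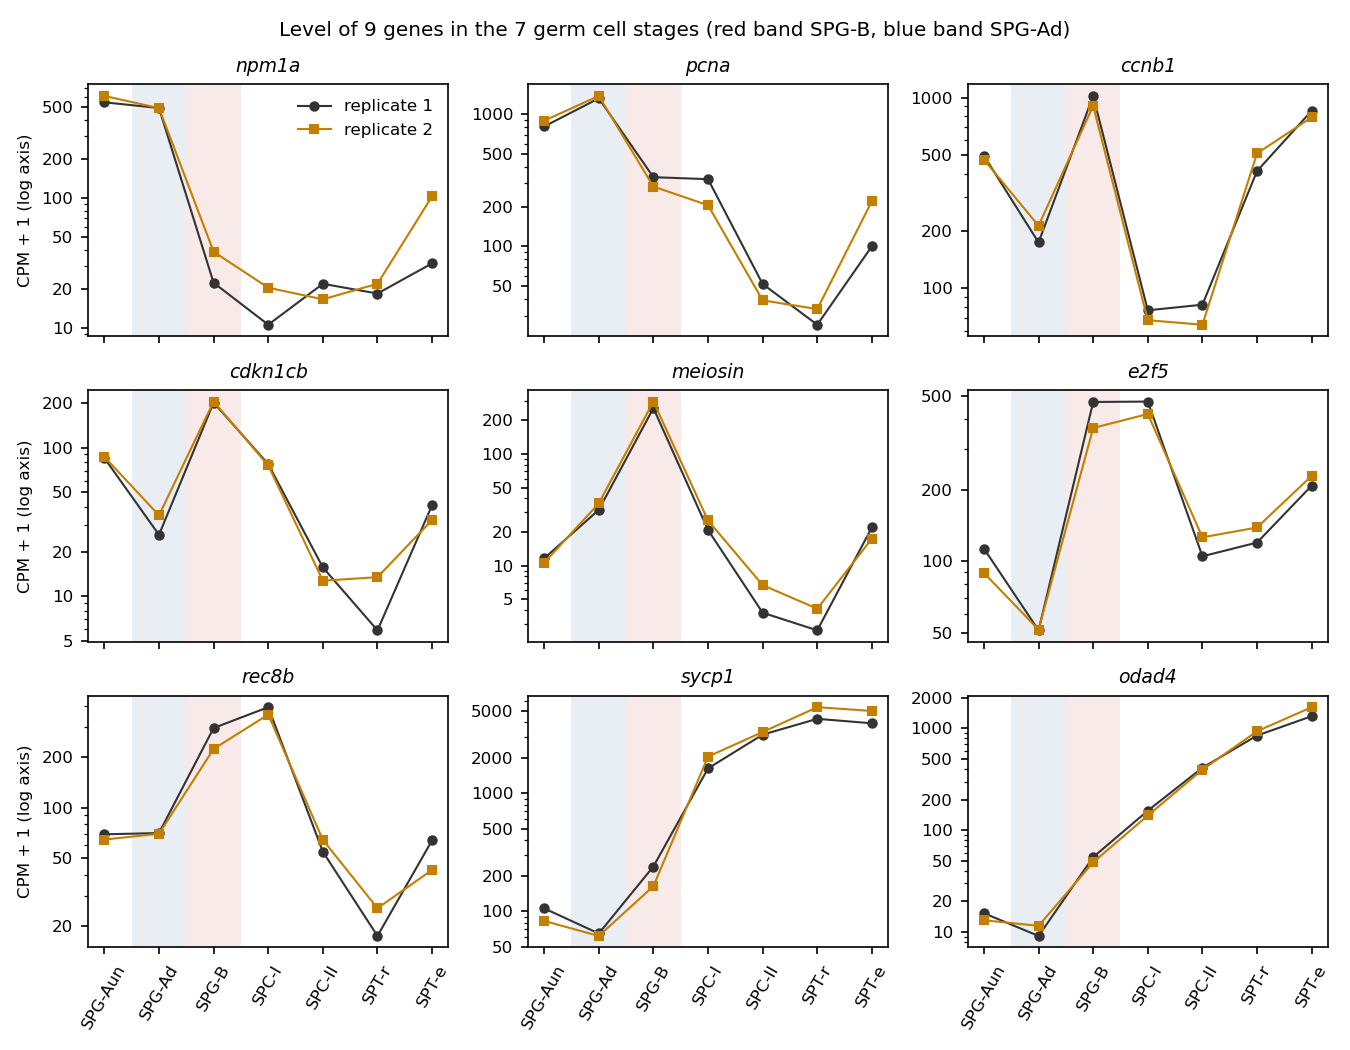
Level of 9 genes in the 7 germ cell stages, in order of differentiation, as CPM + 1 on a log axis, for replicate 1 (dark circles) and replicate 2 (orange squares), with SPG-Ad shaded blue and SPG-B red. The genes meiosin, ccnb1 and cdkn1cb peak at SPG-B among the spermatogonia and spermatocytes, npm1a drops between SPG-Ad and SPG-B, and sycp1 and odad4 go on rising after it.

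Of 24 tested sterol synthesis genes 8 (33.3%) were called higher and none lower, against 5.12% and 9.04% of all genes. The list's median was 0.56. The sterol-binding membrane protein tmem97, a study marker of SPG-B, had 181 and 180 CPM in SPG-B, against 33.1 and 38.2 CPM in SPG-Ad (log2 fold change 2.33 ± 0.20, SE). The demethylation enzyme msmo1 had 128 and 108 CPM in SPG-B and 33.3 and 33.3 CPM in SPG-Ad, lanosterol synthase (lss) 18.8 and 14.9 CPM in SPG-B and 6.45 and 6.81 CPM in SPG-Ad, and hmgcs1, early in the pathway, 70.35 and 46.7 CPM in SPG-B and 25.4 and 27.3 CPM in SPG-Ad. The calls of hmgcs1 and lss were lost without replicate 1 (0.58 and 0.94) and that of lss without replicate 2 (1.38). Of 53 tested genes of the proteasome list 5 (9.43%) were called higher and none lower, against 5.12% and 9.04% of all genes (median 0.52). They include the activator psme1, with 97.4 and 74.0 CPM in SPG-B and 25.8 and 20.6 CPM in SPG-Ad, and psmc3ip, which the list took in by its symbol and which is a meiotic recombination gene.

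Of 103 nuclear genes of oxidative phosphorylation and its assembly factors 4 were called in each direction, a share below that of all genes, although 78 were above their SPG-Ad level in both replicates (all genes, 35.5%). They took 3.69% and 3.49% of UMIs in SPG-B and 2.66% and 2.81% in SPG-Ad. None of the 13 mitochondrially encoded genes was called by edgeR, at a median of -0.08. Of 46 endoplasmic reticulum folding genes 2 (4.35%) were called higher and 1 (2.17%) lower, both shares below those of all genes. The disulfide isomerase pdia4, a study marker of SPG-B, had 216 and 292 CPM in SPG-B and 75.0 and 82.9 CPM in SPG-Ad. Glycolysis genes were 3 higher and 2 lower of 29 (10.3% and 6.90%), against 5.12% and 9.04% of all genes. Of 28 p53 response genes 4 were higher and 2 lower (14.3% and 7.14%), against 5.12% and 9.04% of all genes. Those higher were led by tp53inp1, with 13.8 and 19.1 CPM in SPG-B and 1.505 and 2.97 CPM in SPG-Ad. Those lower were ddb2, with 44.6 and 43.0 CPM in SPG-B and 132 and 122 CPM in SPG-Ad, and the inhibitor cdkn1a given above.

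Among enzymes of DNA and histone methylation 12 of 63 tested (19.0%) were called lower and 5 (7.94%) higher, against 9.04% and 5.12% of all genes. The arginine methyltransferase prmt5 had 17.0 and 12.3 CPM in SPG-B, against 95.02 and 84.6 CPM in SPG-Ad, the H3K9 methyltransferase ehmt2 0.63 and 4.86 CPM in SPG-B, against 19.1 and 19.0 CPM in SPG-Ad, and the maintenance DNA methyltransferase dnmt1 44.0 and 41.1 CPM in SPG-B, against 121 and 82.0 CPM in SPG-Ad. The demethylase kdm5b (ENSDARG00000003098) was the one with the largest rise, at 37.7 and 22.8 CPM in SPG-B and 8.17 and 6.57 CPM in SPG-Ad. Without replicate 1 kdm5b and dnmt1 were not called (1.597 and -1.19). Inside SPG-B dnmt1 was lower in cluster 12 than in cluster 10 (log2 difference -2.52 in replicate 1 and -1.505 in replicate 2). With SPG-B from cluster 10 only, dnmt1 was not called (log2 fold change -0.56). Of 69 chromatin remodellers, acetylation enzymes and readers 4 were called lower and none higher, a share of 5.80% against 9.04% of all genes.

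Nuclear pore, lamina and transport genes were called lower in 10 of 54 (18.5%) and higher in 1 (1.85%), against 9.04% and 5.12% of all genes. The gene called higher was the importin kpna2, with 533 and 572 CPM in SPG-B and 146 and 173 CPM in SPG-Ad. The lamin gene lmnl3, named by the rule for large changes, had 266 and 233 CPM in SPG-B and 44.3 and 56.6 CPM in SPG-Ad. Of 64 splicing factors 6 (9.38%) were called lower and 1 higher. Of 22 SUMO pathway genes 2 (9.09%) were lower, among them the SPG-Ad marker sumo3b (-1.53 and not called without replicate 1), and 1 higher. Both shares called lower were near the 9.04% of all genes. Of 39 heat shock genes 4 (10.3%) were called higher and 2 (5.13%) lower, against 5.12% and 9.04% of all genes. Here the libraries stood apart, since hsp70l had 1111 and 4418 CPM in SPG-B and 1094 and 4828 CPM in SPG-Ad, and its level followed the replicate and not the stage.

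The remaining genes named for large changes were smim29 and sbno2 (ENSDARG00000016188), which rose by 2.12 and 2.21 on the log2 scale, and shmt1 and mibp, which fell. The serine hydroxymethyltransferase shmt1, an enzyme of one-carbon metabolism, had 18.8 and 16.4 CPM in SPG-B, against 133 and 132 CPM in SPG-Ad. Of the markers of each stage, 4 of 7 for SPG-B and 6 of 8 for SPG-Ad were matched by name. All 4 matched markers of SPG-B were called higher, and 4 of the 6 of SPG-Ad were called lower. The other 2, tuba8l4 and lbr, had log2 fold changes of -0.92 and -0.88. These markers were chosen by the study on the same cells.

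SPG-B was not uniform. The study joined 2 of its clusters, 10 and 12, as SPG-B. Cluster 12 held 67 cells and cluster 10 held 111 cells of replicate 1, and the vote in replicate 2 gave 140 and 151 cells. Of 178 hidden SPG-B cells of replicate 1 the vote recovered 169 as SPG-B, and it named the right cluster for 162 of these 169 (95.9%). No known cluster labels were available to check it in replicate 2. Cells of cluster 12 had a median of 11620 and 11242.5 UMIs, and those of cluster 10 had 6510 and 5914. With 1 library for each replicate and cells grouped by the same genes, the values are a description with no test, and intervals are exact Poisson intervals (95%) that cover counting error only.

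Mitotic genes were concentrated in cluster 12. The mitotic list took 2.45% and 2.13% of UMIs in cluster 12, against 0.972% and 0.752% in cluster 10, with 1.14% and 1.08% in SPG-Ad. List shares set beside the clusters are plain shares of UMIs, so those of SPG-Ad differ slightly from the scaled shares above. The kinase cdk1 had 832 CPM (768 to 899) in cluster 12 of replicate 1 and 63.7 CPM (47 to 84.5) in cluster 10, and 739 and 41.6 CPM in replicate 2. The mitotic kinase plk1 had 494 and 558 CPM in cluster 12 and 47.8 and 45.8 CPM in cluster 10, so its level over all of SPG-B is an average of very different cells. Cyclin ccnb3 had 454 and 342 CPM in cluster 12 and 75.7 and 46.8 CPM in cluster 10, where SPG-Ad had 91.4 and 67.6 CPM, and troap had 198 and 159 CPM in cluster 12 and 33.2 and 18.7 CPM in cluster 10. When cluster 10 alone was set against SPG-Ad, cdk1 and plk1 were called lower than in SPG-Ad (log2 fold change -2.83 and -2.18), and troap, kpna2 and ccnb3 were not called (0.22, 0.40 and -0.50). The genes kif11 and aurka were not called in that setting either (0.58 and 0.07). The tubulin and stathmin list took 1.16% and 1.19% of UMIs in cluster 12, 0.455% and 0.418% in cluster 10 and 1.08% and 1.13% in SPG-Ad. For tubb4b the levels were 3329 and 3206 CPM in cluster 12, 463 and 470 CPM in cluster 10 and 2242 and 2286 CPM in SPG-Ad. For tuba8l4 they were 2014 and 2089 CPM in cluster 12, 490 and 299 CPM in cluster 10 and 2405 and 2551 CPM in SPG-Ad.

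Replication genes showed the opposite. The list took 0.443% and 0.466% of UMIs in cluster 12, against 1.19% and 1.19% in cluster 10, with 1.41% and 1.41% in SPG-Ad. The helicase gene mcm5 had 33.9 CPM (22.1 to 49.7) in cluster 12 of replicate 1 and 441 CPM (395 to 491) in cluster 10, and 58.1 and 505 CPM in replicate 2, so that cluster 10 lay above and cluster 12 below SPG-Ad, with 251 and 269 CPM. Even so, pcna was lower in cluster 10 than in SPG-Ad, with 113 and 175 CPM in cluster 12, 588 and 495 CPM in cluster 10 and 1367 and 1391 CPM in SPG-Ad. The transcription repressor ripply2 had 32.6 and 28.8 CPM in cluster 12, 308 and 278 CPM in cluster 10 and 45.6 and 49.7 CPM in SPG-Ad, and swsap1, a recombination gene, had 15.6 and 23.1 CPM in cluster 12, 161 and 238 CPM in cluster 10 and 22.1 and 36.4 CPM in SPG-Ad. The kinase gene cdk2 had 246 and 165 CPM in cluster 12, 555 and 414 CPM in cluster 10 and 160 and 151 CPM in SPG-Ad. With cluster 12 only, cdk2 and the cyclin ccna2 were not called (log2 fold changes 0.39 and -0.63).

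Other differences between the stages were shared by both clusters. The gene meiosin had 267 and 291 CPM in cluster 12 and 268 and 330 CPM in cluster 10, with 31.7 and 35.5 CPM in SPG-Ad. The inhibitor cdkn1cb had 197 and 185 CPM in cluster 12 and 222 and 257 CPM in cluster 10, with 25.9 and 34.5 CPM in SPG-Ad. The nucleolar list took 0.413% and 0.417% of UMIs in cluster 12 and 0.423% and 0.381% in cluster 10, against 1.14% and 1.01% in SPG-Ad, and npm1a had 22.2 and 45.0 CPM in cluster 12 and 22.6 and 30.2 CPM in cluster 10. The mitotic regulators ccnb1 and cdc20 were above SPG-Ad in both clusters and higher in cluster 12, with 1327 and 1226 CPM of ccnb1 in cluster 12, 806 and 482 CPM in cluster 10 and 180 and 215 CPM in SPG-Ad. The meiotic gene terb2 was likewise above SPG-Ad in both, with 97.8 and 90.6 CPM in cluster 12. It had 195 and 185 CPM in cluster 10 and 27.0 and 28.2 CPM in SPG-Ad. The meiotic list as a whole was higher in cluster 10, with 1.101% and 1.013% of UMIs. The list took 0.789% and 0.675% in cluster 12 and 0.663% and 0.617% in SPG-Ad. The gene sycp3 had 2272 and 2506 CPM in cluster 10, against 1253 and 1168 CPM in cluster 12. With cluster 12 only, meiob and stag3 were not called (log2 fold changes 0.726 and 0.734). By contrast, sycp1 was higher in cluster 12, with 263 and 188 CPM, against 235 and 137 CPM in cluster 10.

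**Figure D5:**
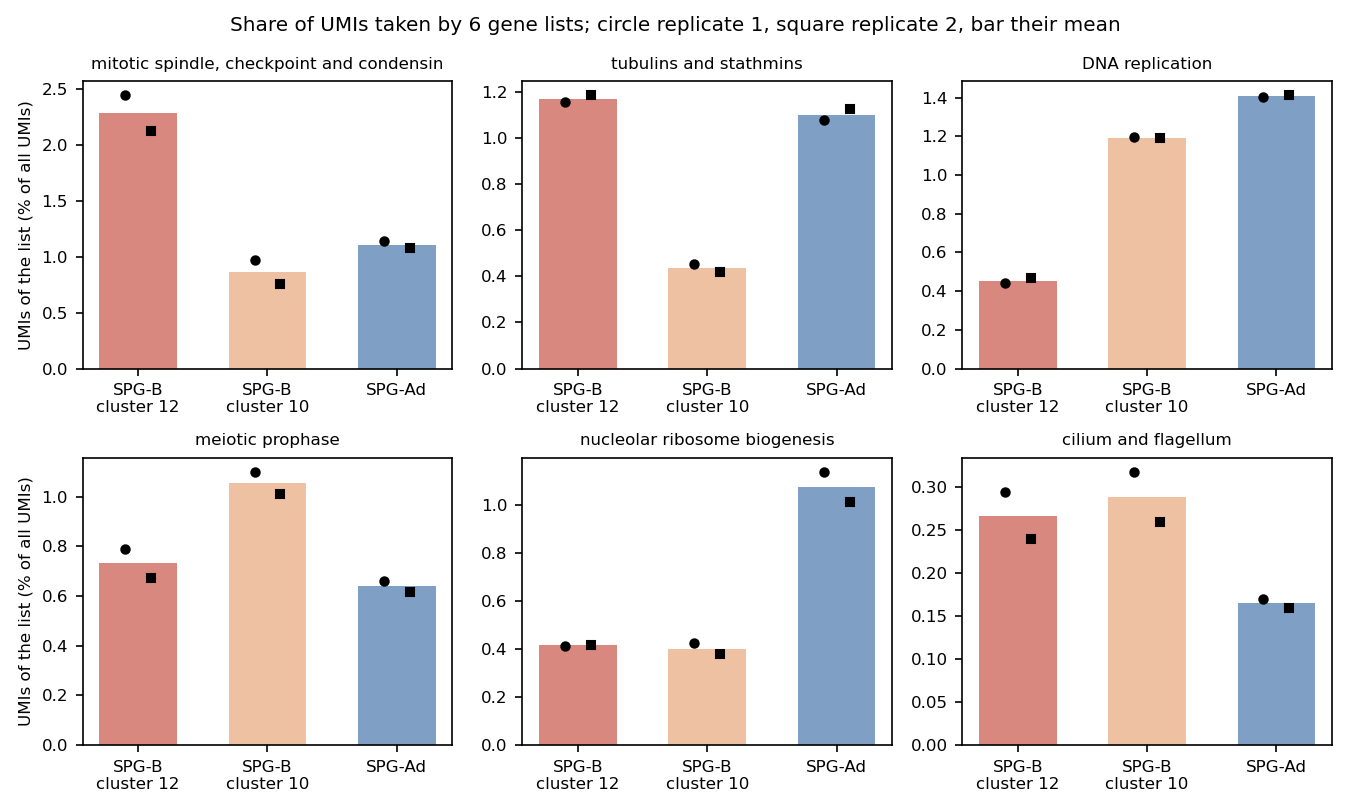
Share of UMIs (%) taken by 6 gene lists in SPG-B cluster 12, SPG-B cluster 10 and SPG-Ad, with circles for replicate 1, squares for replicate 2 and bars for their mean. Mitotic genes are highest in cluster 12 (2.45% and 2.13%) and replication genes lowest there (0.443% and 0.466%), while the nucleolar share is near 0.4% in both clusters and above 1% in SPG-Ad.

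Set beside the stage before and the stage after, the named genes followed different courses. These comparisons share the SPG-Ad and SPG-B sums, so their values are given side by side only. For ccnb1 the log2 fold changes were -1.33 for SPG-Ad over SPG-Aun, 2.32 for SPG-B over SPG-Ad and -3.76 for SPC-I over SPG-B. For cdkn1cb they were -1.51, 2.76 and -1.41 in the same order, and for meiosin 1.71, 3.06 and -3.62. For e2f5 they were -0.99, 3.05 and 0.09, so its level in SPC-I was near that in SPG-B. For npm1a they were -0.23, -4.02 and -1.002, and for fbl -0.22, -3.04 and -0.48, so that the step between SPG-Ad and SPG-B was the largest of the 3 for both. The H2A gene hist1h2a5 was higher in SPG-Ad than in SPG-Aun (3.90), lower in SPG-B (-4.41) and higher again in SPC-I (2.69).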

How the data were processed

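Single-cell RNA-seq libraries of 2 replicates were analysed from the deposited counts. The authors mapped reads to danRer11 and counted UMIs per gene and barcode with Cell Ranger, version 7.2.0 in their notes and 6.1.2 in the matrix header, and the deposited values are raw counts, not normalized. The annotation release is not given in the sources used here, and the kit version differs between labels and methods. The files give identifiers only, and a reference table named 29201 of 32520.

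Cells with 200 to 7000 genes and at most 5% mitochondrial UMIs were kept (3018 and 5104 of 3984 and 5996 barcodes). Of replicate 1, 1999 cells had a study label, 112 cells within the same barcode range had been left out by the study, and 907 were not used. Labels passed to replicate 2 by the 15 nearest cells among 30 principal components of 2000 variable genes, centred within each replicate, with 1509 list and marker genes left out. Leiden clusters nearly confined to one replicate were left out (974 cells of replicate 2), of which 318 would have become SPG-B at a median of 1268.5 UMIs. Doublets were called (64 and 137 cells) and removed only as an alternative.

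UMIs were summed per stage and replicate (14 sums) and tested with edgeR 4.0.16 (filterByExpr, TMM, quasi-likelihood, Benjamini-Hochberg adjustment over 14187 genes). Tested on simulated data for this comparison over 14187 genes, it called 81 of 100 genes changed by 1.5 and 100 of 100 changed by 2.5 on the log2 scale, and 5 unchanged genes. The changed genes were drawn from those with at least 100 UMIs in SPG-Ad. All genes were given one common spread, and the sums were drawn independently. These figures therefore do not cover rarer genes, genes with a wider spread or sums that share a library. Same-numbered sums come from one library, and their deviations correlated over genes (0.29 for these stages, 0.12 to 0.49 over all pairs), so the fit with the replicate as a block was an alternative. Levels are CPM after TMM scaling, except for clusters 10 and 12 and marker sums, which are plain CPM. List shares of whole stages are sums of the scaled CPM, and those set beside the clusters are plain shares of UMIs. Differences per replicate used a prior count of 2.

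Named were the 12 genes with the largest rise and fall at 50 CPM or more with a symbol that is no clone name, the 2 most abundant and the most changed called members of each list, the genes and markers by which the study names the stages, and all cyclins and Cdk inhibitors. Further genes, among them rec8b, sycp1, meiob, stag3, mcm5, plk1, swsap1, kif11, aurka, tdrd1, dnd1 and others named for a list, were chosen after their values were seen. The lists and members were chosen with earlier results of these data known. Other settings of normalization, filter, vote, depth and clusters are given at the end. The libraries are called biological replicates (n = 2 adult males). The p-values set a difference against the spread between these 2 libraries, estimated over the 14 sums of all stages.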

Additional observations from a re-analysis of the deposited data

How the results depend on the processing

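Most settings left both counts of called genes (727 higher, 1282 lower) within 1.5 times, among them DESeq2 (703 and 1194), RLE size factors (725 and 1352), no filter on low counts (679 and 1625), the other ways of passing labels, doublets left out, and SPG-B from either of its clusters alone. For single clusters the genes differed more than the counts. Cluster 12 alone shared 440 higher and 904 lower calls with the main fit, and 17 called genes had the opposite sign. Cluster 10 alone shared 571 and 995, with 16 of opposite sign. With the replicate as a block, which pairs the sums of a library, 844 genes were higher and 1551 lower, and among the named genes 1 call changed (cdk6 became lower). The counts moved further in these cases. When sums were scaled to cell numbers, 141 genes were higher and 4255 lower, and with each cell thinned to 2000 UMIs, where 9160 genes could be tested, 421 and 706. Without one replicate the counts ranged from 205 to 418 higher and from 766 to 1056 lower, with 1 sum per stage, whose spread is assumed to be that of the other stages. The ratio of UMIs per cell stayed between 0.565 and 0.662 with means over cells, weighted votes, predicted labels or 1 replicate left out. It was not computed for either cluster alone or with the clusters of replicate 2 alone kept. The clusters differ in depth, with medians of 11620 and 11242.5 UMIs in cluster 12 and 6510 and 5914 in cluster 10, beside 13207.5 and 12426.5 in SPG-Ad. The ratio for SPG-B as a whole therefore depends on the mix of its clusters. Of the 100 named genes that were called, 54 kept their call under every alternative, and 5 changed sign in one. With SPG-B from cluster 10 only, the log2 fold change was -0.50 for ccnb3 and -0.34 for tuba1b, and cdk1 (-2.83), ccnf (-2.24) and plk1 (-2.18), not called over both clusters, were lower than in SPG-Ad. With cluster 12 only it was -0.12 for orc1, -0.65 for ripply2 and -0.55 for swsap1, and casp8ap2, not called over both clusters, was at -2.19. Keeping the clusters of replicate 2 alone and centring both replicates together were chosen after seeing the data, with 801 and 774 genes higher and 1105 and 1345 lower. Depth limits genes with few UMIs in the SPG-B sums, such as nanos2 and zbtb16b, and genes at 0 are given as bounds. Setting them at their bound moved the median of the identity list from 0.01 to 0.08 and of glycolysis from 0.12 to 0.18.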
